A study of Homo sapiens with 24 samples.

Results

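Nalm6 cells depleted of G9a were compared with Nalm6 cells depleted of its partner GLP. Nalm6 is an established B-cell precursor acute lymphoblastic leukemia line. The comparison used 12 of the 24 RNA-seq libraries of the series, chosen by their labels: all 6 shG9a libraries against all 6 shGLP libraries. In each set, 3 libraries came from cells given 100 nM dexamethasone (dex) for 8 h and 3 from cells given the ethanol vehicle for the same time. Both sets had been infected with a lentiviral shRNA vector and selected with puromycin, so the cells were resistant populations and not clones. A single vector is named for each target, so an effect of the vector on genes other than its target cannot be told apart from depletion. The 6 libraries with the non-specific shRNA (shNS) did not enter the comparison, and their levels are given beside the results as a description. The labels place the 3 biological replicates on different days.

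G9a (gene EHMT2) and GLP (gene EHMT1) are closely related lysine methyltransferases that work largely as a heterodimer and place mono- and dimethyl marks on lysine 9 of histone H3, a mark of silenced chromatin. Both also methylate themselves, which creates a docking site for the chromodomain protein HP1γ (gene CBX3). Besides repressing genes, the pair can act as a coactivator of the glucocorticoid receptor, the transcription factor that dex activates and through which glucocorticoids kill B-lymphoblastic leukemia cells. Setting one depletion against the other asks which transcripts separate the partners. The type of vector, the selection and the treatments were alike, but each set carried its own shRNA.

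Library totals ran from 9289533 to 14387770 counts. Reads were counted on single RefSeq accessions, and genes with 1 accession held 93.5% of all counts in the 12 libraries, so genes with several accessions are thinly counted and a low value for them says little about the gene. B-cell precursor markers fitted the label where they were counted: RAG1 had at least 20860 counts in every library, and 5 of 12 fixed markers had more than 10 in each, while CD79B, CD22 and DNTT, which have several accessions, were listed at 0. Of 29 markers of other blood and stromal cells, 28 were in the table and 13 were listed at 0 in all 12 libraries. The shG9a dex library of replicate 2 stood apart from the others. It was the deepest, and its chi-squared distance from its own group, per degree of freedom, was 26.6 and 41.07, where it ran from 3.486 to 12.46 for the other pairs of replicates. Counts that this library moves are given with and without it, beside the result or, for the smaller lists, at their end.

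GLP's own transcript was lower in the shGLP cells, by a narrow margin. EHMT1 (chromosome 9, 140513444 to 140764468 on GRCh37, plus strand) had counts on 1 of its 6 accessions, NM_001354259. It had between 3.06 and 4.07 CPM (counts scaled to a common library total) in the shG9a libraries, with a median of 3.57. In the shGLP libraries it had between 1.66 and 3.18 CPM, with a median of 2.66. The groups overlapped, and the shG9a library was the higher one in 6 of 6 pairs of the same replicate and treatment. Here and below, overlap is judged over all 6 libraries of each shRNA, both treatments together, unless a treatment is named. The log2 fold change of shG9a over shGLP was 0.46 (SE 0.14, adjusted p = 0.0355, edgeR quasi-likelihood test). The shNS libraries had a mean of 3.67 CPM, near the shG9a mean of 3.54. The transcript had 18 to 49 counts a library, so the depth of the depletion is poorly measured. The direction held in every alternative run, but the call did not: the adjusted p was 0.111 without the replicate term and 0.132 with DESeq2, and it ran from 0.0328 to 0.156 over the edgeR fits that left out 1 library or 1 replicate number. EHMT2 was not analysed here, and the shG9a label therefore has no check of its own. Of the 2 accessions of CBX3, neither passed the test, with log2 fold changes of 0.35 (SE 0.14, adjusted p = 0.101, edgeR) and -0.08 (SE 0.19, adjusted p = 0.823, edgeR).

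The partners' depletions left clearly different transcriptomes. Of 9746 tested transcripts, 1612 (16.5%) were called in edgeR, that is, had an adjusted p no higher than 0.05 in a model with treatment and replicate number. Of these, 752 were higher and 860 lower in shG9a than in shGLP cells. Most differences were small: 927 of the called transcripts differed by less than 1.3-fold and 128 by 2-fold or more, and of the latter 84 were lower and 44 higher with shG9a. Without the replicate term 974 transcripts were called, and without the shG9a dex library of replicate 2 the count was 2136. Counted once per gene by the most abundant accession, 8.13% of 9048 genes were higher and 9.31% lower with shG9a, and these are the shares against which each gene group is set.

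**Figure D1:**
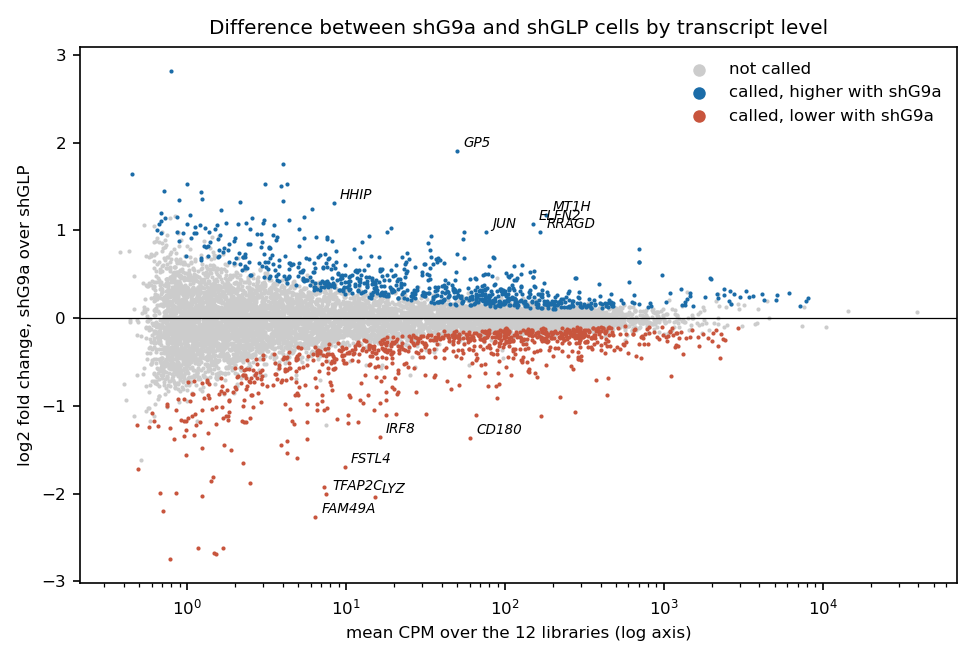
Log2 fold change of shG9a over shGLP for each of the 9746 tested transcripts (vertical axis) against its mean CPM over the 12 libraries (horizontal log axis). Blue points were called higher and red points lower with shG9a, and grey points were not called; GP5 stands alone at the top among transcripts above 5 CPM, and FAM49A, TFAP2C and LYZ at the bottom.

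Among transcripts with a mean of at least 5 CPM, the one furthest up with shG9a was GP5, which encodes platelet glycoprotein V. It had 46 to 110.1 CPM in shG9a cells (median 82.0) and 13.8 to 29.0 CPM in shGLP cells (median 19.1). No shGLP library reached the lowest shG9a library. The log2 fold change was 1.90 (SE 0.07, adjusted p = 3.9e-10, edgeR), and it was 1.99 in ethanol and 1.79 in dex. The shNS mean was 20.3 CPM, close to the shGLP mean of 21.0 over both treatments, but in dex shNS lay below shGLP. In all 3 the mean was lower in dex than in ethanol: 54.3 ± 8.75 against 104 ± 5.28 CPM with shG9a (SD, n = 3), 15.6 ± 1.53 against 26.4 ± 4.06 with shGLP and 8.58 ± 2.22 against 32.0 ± 2.37 with shNS.

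At the opposite end of the same range of levels, FAM49A (now CYRIA), whose product binds the small GTPase RAC1, had 1.16 to 3.23 CPM with shG9a and 8.79 to 12.8 CPM with shGLP. The log2 fold change was -2.27 (SE 0.15, adjusted p = 2.13e-07, edgeR), and the shNS mean of 4.63 CPM lay between the groups. LYZ, the secreted antibacterial enzyme lysozyme, had 4.36 to 7.66 CPM with shG9a and 19.4 to 31.2 CPM with shGLP. Its log2 fold change was -2.04 (SE 0.11, adjusted p = 1.44e-08, edgeR) and its shNS mean 3.27 CPM. The groups did not overlap for either gene. For LYZ the shGLP cells stood off from shNS, where for GP5 the shG9a cells were above both. LYZ is also a marker of myeloid cells, and the summed level of the 29 markers of other cells was 37.1 to 49.4 CPM in the shGLP libraries, 19.2 to 24.7 in the shG9a libraries and 14.7 to 22.4 in the shNS libraries. LYZ made up most of that gap, and without it the sums were 17.5 to 23.2, 13.3 to 18.3 and 12.3 to 18.2 CPM. Of the 4 of these markers that were tested, LYZ and MPO (log2 fold change -1.86, SE 0.28) were lower with shG9a, whereas the neutrophil markers ELANE and S100A9 were listed at 0 in every library. In bulk RNA, fewer cells with a transcript and less of it in each cell cannot be told apart.

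**Figure D2:**
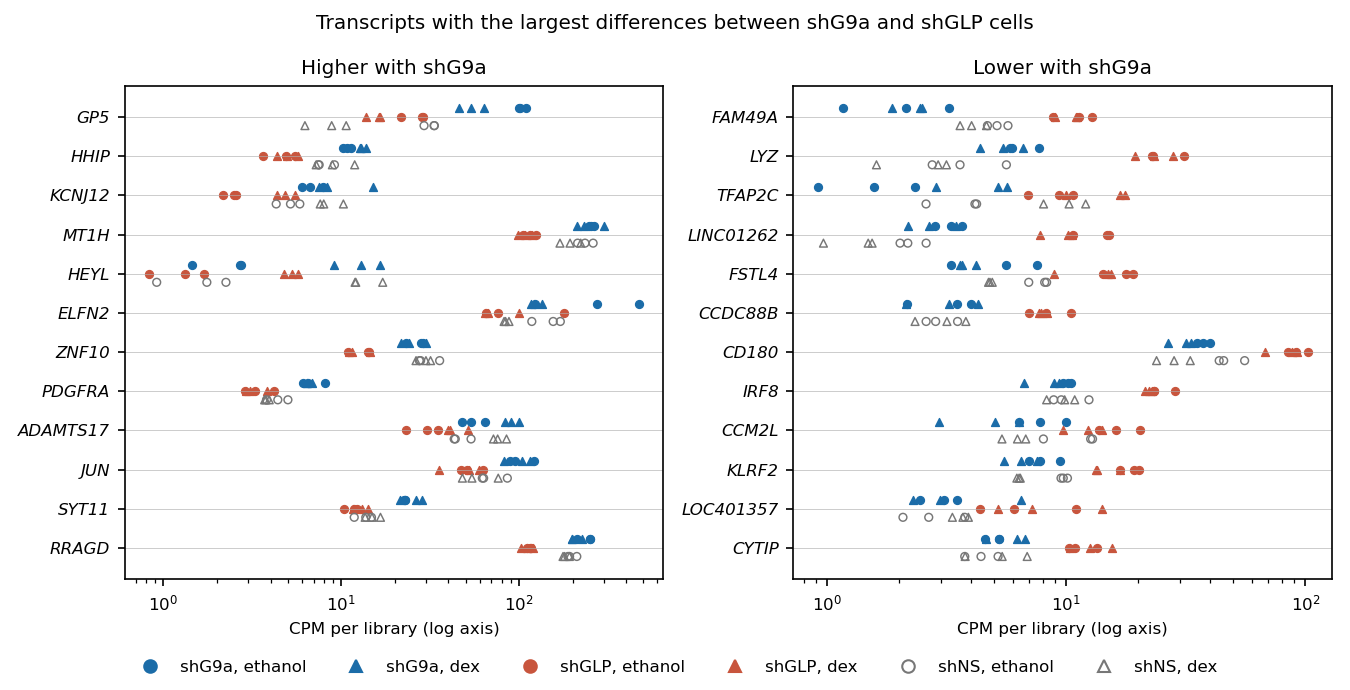
CPM of each library (log axis) for the 12 transcripts furthest up and the 12 furthest down with shG9a among those called, with a mean of at least 5 CPM and the same direction in 6 of 6 pairs. Blue marks shG9a, red shGLP and open grey shNS, with circles for ethanol and triangles for dex; for GP5 the shG9a points lie right of the others, whereas for LYZ, CD180 and IRF8 the shGLP points do.

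The other transcripts of the leading 12 that were higher with shG9a had log2 fold changes from 0.98 to 1.31. HHIP, which binds hedgehog ligands, had 10.3 to 13.8 CPM with shG9a and 3.65 to 5.72 CPM with shGLP (log2 fold change 1.31, SE 0.11). PDGFRA, a receptor tyrosine kinase, had 6.11 to 8.14 and 2.86 to 4.21 CPM (1.01, SE 0.11). SYT11, a synaptotagmin of vesicle traffic, had 21.5 to 28.5 and 10.4 to 14.1 CPM (0.98, SE 0.08). None of these 3 genes had overlapping groups. The leading genes were picked for large differences with the same direction in 6 of 6 pairs. Groups that lie apart largely follow from that choice and are no added support. The share of all tested transcripts with groups apart was not counted. RRAGD, a Rag GTPase that helps recruit mTORC1 to lysosomes, was both abundant and tightly measured, with 197 to 252 CPM against 103 to 119.7 CPM (0.98, SE 0.04, adjusted p = 4.81e-09, edgeR). JUN, a subunit of the AP-1 transcription factor, had 81.8 to 121.9 CPM against 35.4 to 63.0 CPM (0.98, SE 0.06), with a shNS mean of 65.0 CPM between them.

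KCNJ12 encodes an inwardly rectifying potassium channel and ADAMTS17 a secreted metalloprotease. KCNJ12 had 6.01 to 15.2 CPM with shG9a and 2.15 to 5.49 CPM with shGLP (log2 fold change 1.24, SE 0.17), and ADAMTS17 had 47.6 to 100.4 and 23.3 to 51.9 CPM (0.98, SE 0.06). Over both treatments the groups overlapped for ADAMTS17 and were apart for KCNJ12. Within each treatment ADAMTS17 was apart too. It had 47.6 to 64.55 against 23.3 to 34.9 CPM in ethanol and 83.3 to 100.4 against 40.0 to 51.9 CPM in dex. HEYL, a transcriptional repressor of the Notch pathway, was low in ethanol and higher in dex under each shRNA. In dex it had a mean of 12.9 ± 3.72 CPM with shG9a (SD, n = 3), 5.26 ± 0.477 with shGLP and 13.7 ± 2.94 with shNS. The shGLP level was the low one there, and in ethanol the 3 means were 2.30, 1.28 and 1.64 CPM. ELFN2, a leucine-rich repeat membrane protein, was the least even of the 12: its shG9a libraries ran from 116.7 to 471 CPM and its shGLP libraries from 64.4 to 180 CPM, which overlap (1.07, SE 0.24, adjusted p = 0.00659, edgeR). The adjusted p in edgeR was 0.0582 without replicate 1 and 0.053 without replicate 3.

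The leading 12 that were lower with shG9a included CD180, IRF8, CYTIP and KLRF2. CD180, a Toll-like surface protein of B cells (chromosome 5, 66475441 to 66492627 on GRCh37), had 26.7 to 39.7 CPM with shG9a and 67.9 to 102.1 CPM with shGLP, with no overlap. Its log2 fold change was -1.37 (SE 0.05, adjusted p = 1.27e-09, edgeR), and the shNS mean was 38.3 CPM. IRF8, a transcription factor of B and myeloid cells, had 6.66 to 10.5 CPM with shG9a against 21.3 to 28.4 CPM with shGLP (-1.36, SE 0.08), and 9.96 CPM on average with shNS. CYTIP, which holds back cytohesins at the leukocyte membrane, had 4.56 to 6.72 against 10.3 to 15.5 CPM (-1.15, SE 0.11), with 4.89 CPM in shNS. For these 3 genes the shG9a and shNS means over both treatments were close and the shGLP mean stood above both. In ethanol alone, however, CD180 had 43.6 to 55.7 CPM with shNS, above the 35.1 to 39.7 CPM with shG9a. KLRF2, a lectin-like receptor first known from natural killer cells, had 5.50 to 9.39 against 13.3 to 20.2 CPM (-1.19, SE 0.10).

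The rest of these 12 were of mixed function. TFAP2C, an AP-2 transcription factor, had 0.914 to 5.67 CPM with shG9a and 6.92 to 17.6 CPM with shGLP (log2 fold change -2.00, SE 0.15), with higher levels in dex in both. FSTL4, a secreted follistatin-like protein, had 3.30 to 7.56 against 8.89 to 18.9 CPM (-1.70, SE 0.12). CCDC88B had 2.13 to 4.28 against 7.01 to 10.4 CPM (-1.37, SE 0.14). None of these 3 had overlapping groups. CCM2L and LOC401357 overlapped between groups, at -1.20 (SE 0.10) and -1.18 (SE 0.15). Within each treatment CCM2L was apart. It had 6.31 to 9.98 against 13.7 to 20.4 CPM in ethanol and 2.93 to 6.37 against 9.68 to 14.1 CPM in dex. The long noncoding RNA LINC01262 had 2.18 to 3.67 CPM with shG9a, 7.73 to 15.1 CPM with shGLP and a mean of 1.79 CPM with shNS (-1.92, SE 0.14).

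The Toll-like receptor genes and partners were drawn up as a list after CD180 and LYZ had been seen, so their values are a description. LY86, which pairs with CD180 at the cell surface, had 14.9 to 19.7 CPM with shG9a and 22.4 to 29.7 CPM with shGLP (log2 fold change -0.63, SE 0.09, adjusted p = 0.000134, edgeR). TLR9, an endosomal receptor for unmethylated CpG DNA, had 6.23 to 17.8 against 23.5 to 34.8 CPM (-1.09, SE 0.12, adjusted p = 2.17e-05, edgeR). Neither gene's groups overlapped. The lowest shG9a value of TLR9 came from the dex library of replicate 2. That library had 87 counts of it, against 149 to 184 in the other shG9a libraries. Of 12 tested genes on the list, 5 were lower with shG9a and 0 higher, the others being TLR7 (-1.19) and the chaperone HSP90B1 (-0.32). Over both treatments together, the shNS means of CD180, LY86 and TLR9, at 38.3, 17.8 and 15.9 CPM, lay near the shG9a means of 34.0, 16.7 and 13.3 CPM.

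The 250 bases before the start of GP5, CD180 and TLR9 are shown. GP5 led the rises, CD180 was among the leading falls and TLR9 was on the receptor list. They were picked in part for holding few CG dinucleotides, so they do not stand for the other windows. The sequences are RefSeq's (GRCh38.p14, written 5′ to 3′ on the gene's own strand, at chr3:194399267-194399516, minus strand, chr5:67196800-67197049, minus strand and chr3:52225646-52225895, minus strand), with each CG in capitals. CG reads the same on both strands.
GP5: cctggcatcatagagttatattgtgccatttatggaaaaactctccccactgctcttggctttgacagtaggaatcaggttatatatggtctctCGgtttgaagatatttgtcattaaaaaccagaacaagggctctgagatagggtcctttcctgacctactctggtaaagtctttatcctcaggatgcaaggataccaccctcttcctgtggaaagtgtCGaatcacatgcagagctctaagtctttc
CD180: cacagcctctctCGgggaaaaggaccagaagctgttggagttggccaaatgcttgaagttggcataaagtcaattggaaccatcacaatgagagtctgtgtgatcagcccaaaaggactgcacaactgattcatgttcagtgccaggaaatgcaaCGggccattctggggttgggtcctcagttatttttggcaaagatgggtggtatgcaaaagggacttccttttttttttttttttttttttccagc
TLR9: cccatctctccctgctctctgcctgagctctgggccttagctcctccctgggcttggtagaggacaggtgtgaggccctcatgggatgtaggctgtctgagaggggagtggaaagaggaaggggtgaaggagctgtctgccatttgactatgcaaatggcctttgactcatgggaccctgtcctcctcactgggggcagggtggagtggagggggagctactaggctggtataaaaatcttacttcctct
GP5 and CD180 held 2 CG each and TLR9 held 0. Over the 42 genes that were lower with shG9a by 2-fold or more and had 1 window in the RefSeq table, the median was 4 CG and 33.3% held 10 or more. Over all 5324 tested genes with 1 window the median was 21 CG and the share 84%, and over all 22114 windows the share was 49.9%. At 2-fold or more in the other direction the 27 genes had a median of 20 CG. Over all called genes the medians were 23 CG for those higher and 20 for those lower with shG9a, so low CG content went with the large falls, and neither with the large rises, GP5 apart, nor with the calls as a whole. No test was run on these counts.

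Metallothioneins, small cysteine-rich proteins that bind zinc and copper, were looked at as a family after MT1H had come up among the leading genes. All 4 tested members were higher with shG9a. MT1H had 213 to 302 CPM with shG9a and 98.6 to 124.5 CPM with shGLP (log2 fold change 1.17, SE 0.08, adjusted p = 1.21e-07, edgeR). MT1X, the most abundant, had 958 to 1320 against 633 to 961 CPM (0.49, SE 0.04), and MT2A had 94.6 to 156.9 against 89.8 to 109.9 CPM (0.34, SE 0.06). Groups were apart for MT1H and overlapped for MT1X and MT2A, both of which were higher in dex than in ethanol under either shRNA. The shNS means were 216 CPM for MT1H, 1240 for MT1X and 165 for MT2A, so the shGLP cells had the lowest mean of the 3 for each gene. Members of the family are near copies of one another, and how reads shared between them were counted is not given in the sources used here. The windows of the 3 genes lie close together on chromosome 16 (chr16:56669564-56669813, plus strand, chr16:56682220-56682469, plus strand and chr16:56608334-56608583, plus strand, GRCh38.p14) and, unlike that of GP5, are rich in CG (capitals), with 22, 22 and 32.
MT1H: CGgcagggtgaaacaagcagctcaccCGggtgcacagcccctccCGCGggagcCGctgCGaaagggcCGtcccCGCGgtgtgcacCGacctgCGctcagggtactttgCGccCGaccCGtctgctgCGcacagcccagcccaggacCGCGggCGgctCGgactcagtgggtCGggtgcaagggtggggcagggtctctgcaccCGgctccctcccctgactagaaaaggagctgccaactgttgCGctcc
MT1X: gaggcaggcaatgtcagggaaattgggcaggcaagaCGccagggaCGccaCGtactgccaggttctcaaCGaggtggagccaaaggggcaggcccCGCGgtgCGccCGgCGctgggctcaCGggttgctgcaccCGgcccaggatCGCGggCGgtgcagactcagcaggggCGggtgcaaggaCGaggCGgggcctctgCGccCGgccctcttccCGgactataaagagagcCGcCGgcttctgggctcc
MT2A: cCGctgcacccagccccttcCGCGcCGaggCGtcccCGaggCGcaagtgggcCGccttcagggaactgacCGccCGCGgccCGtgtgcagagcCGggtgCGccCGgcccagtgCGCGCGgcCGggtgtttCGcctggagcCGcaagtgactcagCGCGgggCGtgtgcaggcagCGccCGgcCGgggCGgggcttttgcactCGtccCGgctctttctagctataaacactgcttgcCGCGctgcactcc

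Gene groups drawn from pathways of this cell type and treatment showed where smaller differences ran together. Of the histone genes, 25 of 56 tested were lower with shG9a and 0 higher, against a background of 9.31% and 8.13% of all genes. The median log2 fold change was -0.66, where over all tested genes it was -0.02. H1FX, a replication-independent linker histone, had 486 to 709.9 CPM with shG9a and 706 to 963 CPM with shGLP (-0.46), so the groups just overlapped, and its shNS mean was 686 CPM. H2AFX, which marks DNA breaks when phosphorylated, had a log2 fold change of -0.30. Most members encode replication-dependent histones whose mRNAs lack a poly(A) tail, and the median level of the 56 genes was 2.03 CPM. HIST1H1E, a linker histone, had 1.66 to 14.6 CPM with shG9a and 6.64 to 23.4 with shGLP, which overlap widely. Without the replicate term 7 histone genes (12.5%) were lower, and without the shG9a dex library of replicate 2 the count was 31. The summed level of the 45 HIST-named members was 81.1 to 155 CPM in the shG9a libraries (median 100.5) and 107 to 271 CPM in the shGLP libraries (median 174). The highest of these, the shGLP ethanol library of replicate 1, also had the highest level of RMRP among the 12, a small RNA without a poly(A) tail, at 19.8 CPM against 0.961 to 5.44 CPM in the other 11. Leaving out that library, a step chosen after seeing the data, left 13 histone genes lower and a median of -0.48. In the shNS set, the dex library of replicate 1 likewise had 277 CPM of HIST-named genes and 51.1 CPM of RMRP. The histone median against shNS was -0.41 with shG9a and 0.11 with shGLP on the log2 scale.

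Mitosis genes went the same way. Of 37 tested, 18 were lower with shG9a and 0 higher, with a median of -0.22. TOP2A, the topoisomerase that untangles chromosomes, had 1838 to 2242 CPM with shG9a and 2185 to 2748 CPM with shGLP (log2 fold change -0.32, adjusted p = 3.81e-05, edgeR). PLK1, a mitotic kinase, had 289.7 to 417 against 394 to 558 CPM (-0.40), and CDC20, an activator of the anaphase-promoting complex, had 362 to 542 against 479 to 659 CPM (-0.35). The groups overlapped for each of these, and the difference was between libraries of the same replicate and treatment. In ethanol alone each gene's groups were apart, and in dex alone they overlapped. The shNS means, 1985, 336 and 446 CPM, were close to those of shG9a. The list median against shNS was 0.0024 with shG9a and 0.19 with shGLP. In the fit with no replicate term 11 mitosis genes were lower, and without the shG9a dex library of replicate 2 the count was 21. DNA replication and G1/S genes, by comparison, had 1 of 31 higher and 2 lower, the strongest being TK1, thymidine kinase, at -0.54. The shG9a dex library of replicate 2 had 6.38 CPM of TK1, against 11.4 to 17.5 CPM in the other shG9a libraries.

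**Figure D3:**
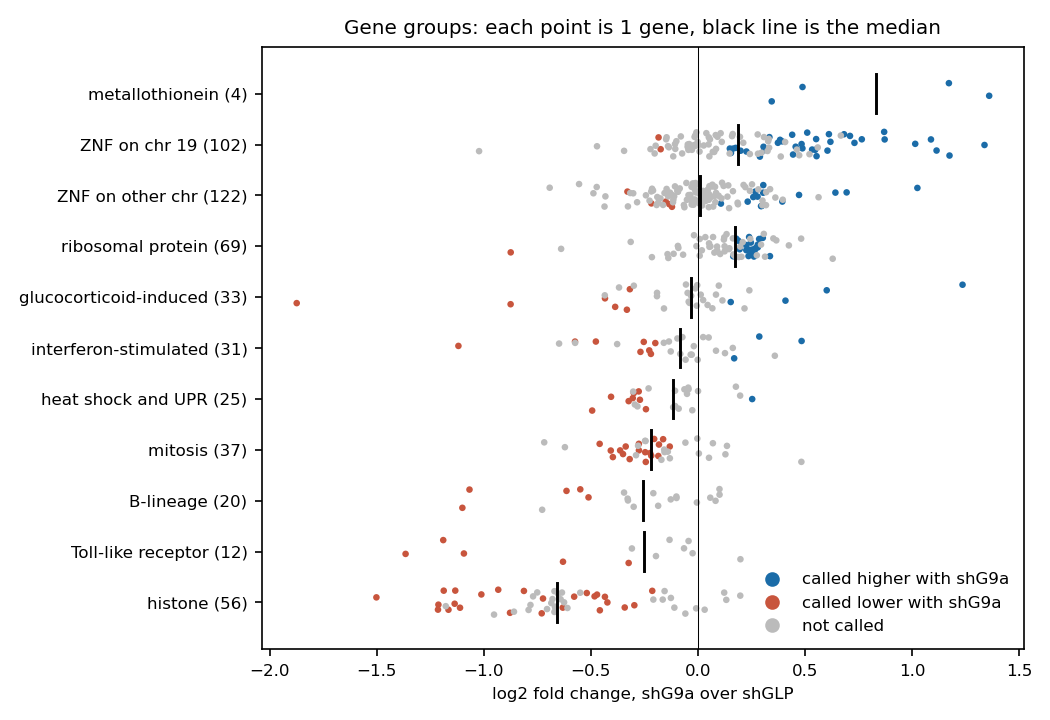
Log2 fold change of shG9a over shGLP (horizontal axis) of every tested gene in 11 groups, with the number tested in brackets and the median as a black line. Blue genes were called higher and red genes lower with shG9a; the histone points lie furthest left with a median of -0.66, and the ZNF points on chromosome 19 spread to the right with a median of 0.19.

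Genes of the B lineage were on the shGLP side too. Of 20 tested, 5 were lower with shG9a and 0 higher, with a median of -0.25. VPREB3, which binds nascent immunoglobulin chains in B-cell precursors, had 108.6 to 227 CPM with shG9a and 297 to 432 CPM with shGLP (log2 fold change -1.07, adjusted p = 1.56e-07, edgeR), with a shNS mean of 244 CPM between them. POU2AF1, a B-cell coactivator of octamer-binding factors, had 179 to 266 against 259.7 to 358 CPM (-0.55). Over both treatments the groups were apart for VPREB3 and overlapped for POU2AF1. Within each treatment POU2AF1 was apart too. It had 215 to 266 against 314 to 358 CPM in ethanol and 179 to 187 against 260 to 302 CPM in dex. The signalling subunit CD79A, the inhibitory receptor CD72 and the surrogate light chain IGLL1 had log2 fold changes of -1.10, -0.61 and -0.51. The shG9a dex library of replicate 2 was far below the other shG9a libraries for CD79A, at 1.36 against 7.39 to 8.39 CPM, and for IGLL1, at 25.2 against 48.01 to 64.9 CPM. Without it the log2 fold changes were -0.82 for CD79A and -0.34 for IGLL1, and 6 genes of the list were lower and 1 higher. The other 15 members, which include genes with thinly counted accessions, did not pass the test.

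Interferon-stimulated genes were split, with 8 of 31 lower and 3 higher with shG9a. LGALS3BP, a secreted galectin ligand, had 83.0 to 125.7 CPM with shG9a and 206 to 250.4 CPM with shGLP, with no overlap (log2 fold change -1.12). MX2, a dynamin-like antiviral GTPase, was at -0.57. On the other side were PLSCR1 (0.48), HERC5 (0.29) and OAS2 (0.17). Of 9 tested NF-κB targets 2 were lower, the cytokine IL1B (-0.46) and the adhesion molecule ICAM1 (-0.20), and of 3 tested MHC genes 1 was lower, B2M (-0.17), the light chain of class I molecules. Genes of the heat shock and unfolded protein responses had 8 of 25 lower and 1 higher. The 8 were mostly chaperones of the endoplasmic reticulum, among them SDF2L1 (-0.49), HSPA5 (-0.41) and PDIA3 (-0.30), and the higher one was ERN1, a sensor of that response (0.25). HSPA5, the main chaperone of that compartment, had 943 to 1374 CPM with shG9a and 1198 to 1756 CPM with shGLP, and the groups overlapped. Within each treatment they were apart, at 1177 to 1374 against 1642 to 1756 CPM in ethanol and 943 to 1095 against 1198 to 1467 CPM in dex.

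Ribosomal protein genes ran in the other direction by a small amount. Of 69 tested, 21 were higher with shG9a and 1 lower, with a median of 0.17. RPL29 had 2047 to 2989 CPM with shG9a and 1763 to 2131 CPM with shGLP (log2 fold change 0.28), and RPS4X had 3855 to 5957 against 3362 to 4213 CPM (0.27). Both overlapped between groups. Within each treatment RPL29 was narrowly apart, at 2047 to 2343 against 1763 to 2006 CPM in ethanol and 2143 to 2989 against 1763 to 2131 CPM in dex. The highest shG9a value of each gene came from the dex library of replicate 2, and without it 31 ribosomal protein genes were higher and 2 lower. In the fit with no replicate term 3 were higher and 1 lower.

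ZNF genes, most of which encode zinc-finger proteins and many of them repressors that recruit H3K9 methylation to DNA, were higher with shG9a where they lie on chromosome 19. There, 37 of 102 tested ZNF genes (36.3%) were higher and 2 (1.96%) lower, with a median log2 fold change of 0.19. Of the 555 other genes on that chromosome, 7.93% were higher and 11.4% lower, and of the 122 ZNF genes elsewhere 11.5% were higher and 4.10% lower. ZNF93 had 49.96 to 78.3 CPM with shG9a and 32.7 to 49.1 CPM with shGLP, with no overlap (0.68, SE 0.05, adjusted p = 4.04e-07, edgeR). ZNF134 had 54.7 to 72.6 against 34.2 to 41.2 CPM, also with no overlap (0.73, SE 0.06, adjusted p = 9.26e-07, edgeR), and ZNF256 had 3.99 to 7.45 against 1.59 to 3.78 CPM (1.34, SE 0.19). ZNF10, on chromosome 12 and among the 12 leading genes, had 21.6 to 30.01 against 10.9 to 14.5 CPM (1.03, SE 0.08). The shNS means of these 4 genes, in the same order, were 75.2, 90.2, 9.88 and 29.9 CPM, each above both depletions, and the median of the chromosome 19 ZNF genes against shNS was -0.07 with shG9a and -0.20 with shGLP on the log2 scale. Over all 230 tested ZNF genes, 54 were higher and 7 lower. Without the replicate term the counts were 45 and 1, and without the shG9a dex library of replicate 2 they were 62 and 11. Many ZNF genes are close copies of their neighbours, so reads could be split between them.

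The windows before ZNF134 and ZNF256 are shown as members of this cluster whose groups did not overlap, with CG in capitals (RefSeq, GRCh38.p14, chr19:57613992-57614241, plus strand and chr19:57947707-57947956, minus strand).
ZNF134: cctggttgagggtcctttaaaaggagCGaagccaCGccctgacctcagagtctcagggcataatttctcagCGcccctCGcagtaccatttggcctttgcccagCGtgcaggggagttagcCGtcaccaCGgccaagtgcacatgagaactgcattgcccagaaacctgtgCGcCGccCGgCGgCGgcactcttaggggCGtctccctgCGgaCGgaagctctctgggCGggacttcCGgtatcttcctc
ZNF256: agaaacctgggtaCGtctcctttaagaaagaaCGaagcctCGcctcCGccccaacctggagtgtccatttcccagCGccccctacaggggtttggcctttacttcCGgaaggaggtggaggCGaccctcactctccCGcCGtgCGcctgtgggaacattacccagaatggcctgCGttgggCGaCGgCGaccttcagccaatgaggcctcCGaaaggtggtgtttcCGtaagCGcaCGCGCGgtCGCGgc
They held 17 and 22 CG, near the median of 17 over the 155 tested ZNF genes with 1 window and, as for the metallothioneins, far above the windows of GP5 and CD180.

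In the remaining groups the calls were few in number. Of 23 tested genes of H3K9 methylation and heterochromatin, 4 were higher with shG9a and 1 lower, against 8.13% and 9.31% of all genes. Besides EHMT1 the higher ones were the H3K9 demethylases KDM4C (0.64), KDM4D (0.27) and KDM4A (0.13), and the lower one was FAM208A (-0.21), a subunit of the HUSH silencing complex. Without the replicate term 0 of this list were higher and 1 lower. Of 6 germline genes, often silenced by G9a and GLP, 1 was higher, SYCP2 of the meiotic chromosome axis (0.63), and of 7 imprinted genes 0 passed the test (the largest, GNAS, 0.36, adjusted p = 0.0863, edgeR). AP-1 and EGR immediate early genes had 3 of 16 higher, JUN, DUSP5 (0.53) and JUNB (0.15), and 2 lower, DUSP1 and SPRED1, and in the fit with no replicate term 2 were higher and 0 lower. The BCL2 family had 1 of 11 higher, the survival protein BCL2 (0.30), and 1 lower, the death-promoting BIK (-0.52). Of 14 p53 targets 2 were higher, SESN2 (0.36) and TRIAP1 (0.16). Without the replicate term SYCP2, DUSP1, BIK and TRIAP1 of these genes, and RPS4X, TK1, IL1B, ICAM1, B2M and FADS1 of the other lists, were not called.

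Among metabolic groups, 5 of 21 sterol and fatty acid genes were higher with shG9a, from 0.18 for FADS1 and TMEM97 to 0.78 for LSS, and 1 was lower. The lower one was ABCA1, the membrane exporter of cholesterol, which had 35.4 to 53.9 CPM with shG9a and 72.5 to 106.8 CPM with shGLP, with no overlap (-1.10), and a shNS mean of 79.8 CPM. LSS was thinly counted, with 9 to 38 counts a library with shG9a and 3 to 21 with shGLP, which overlap. In dex alone it had 35 to 38 against 11 to 21 counts. Glycolysis and glucose uptake had 2 of 21 higher, ENO2 (0.61) and SLC2A3 (0.53). Amino acid response genes had 3 of 26 higher and 2 lower, respiratory chain genes 1 of 44 higher and 2 lower, and MYC targets 1 of 41 higher, FBL (0.16). The sterol count fell to 1 higher without the replicate term and to 0 without replicate 3. Small structured noncoding RNA genes, a list chosen after RMRP had been seen, had 2 of 177 higher and 6 lower, and RMRP itself ran from 0.961 to 2.41 CPM with shG9a and from 2.43 to 19.8 CPM with shGLP (-1.54, SE 0.39).

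Several of these counts shifted when the shG9a dex library of replicate 2 was left out. H3K9 genes then had 5 higher and 4 lower, interferon-stimulated genes 4 and 12, and NF-κB targets 0 and 4. AP-1 and EGR genes had 4 higher and 3 lower, respiratory chain genes 2 and 5, and small structured RNA genes 2 and 16. Imprinted genes had 2 higher and 1 lower, BCL2 family genes 2 and 2, p53 targets 3 and 0, amino acid response genes 5 and 2, and glycolysis genes 4 and 0. Of the receptor and its chaperones 2 were higher, and of the markers of other cells 3 were lower. The total over all transcripts also rose, to 2136.

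The comparison was then made within ethanol and within dex, which share no library. In ethanol 1590 of 9156 transcripts (17.4%) were called, 716 higher and 874 lower with shG9a. In dex 237 of 9310 (2.55%) were called, 99 higher and 138 lower, and without the shG9a dex library of replicate 2 the count was 1044. The median standard error of a log2 fold change was 0.118 in ethanol and 0.152 in dex. Over the 8897 transcripts tested in both, the fold changes had a correlation of 0.551 across transcripts, which are not independent replicates. Of 1583 transcripts called in ethanol, 91.7% had the same sign in dex, and of 236 called in dex, 99.2% had the same sign in ethanol. Over all transcripts 67.6% had the same sign. The 225 called in both had the same direction in each case, and they made up 14.2% of the ethanol calls and 95.3% of the dex calls.

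**Figure D4:**
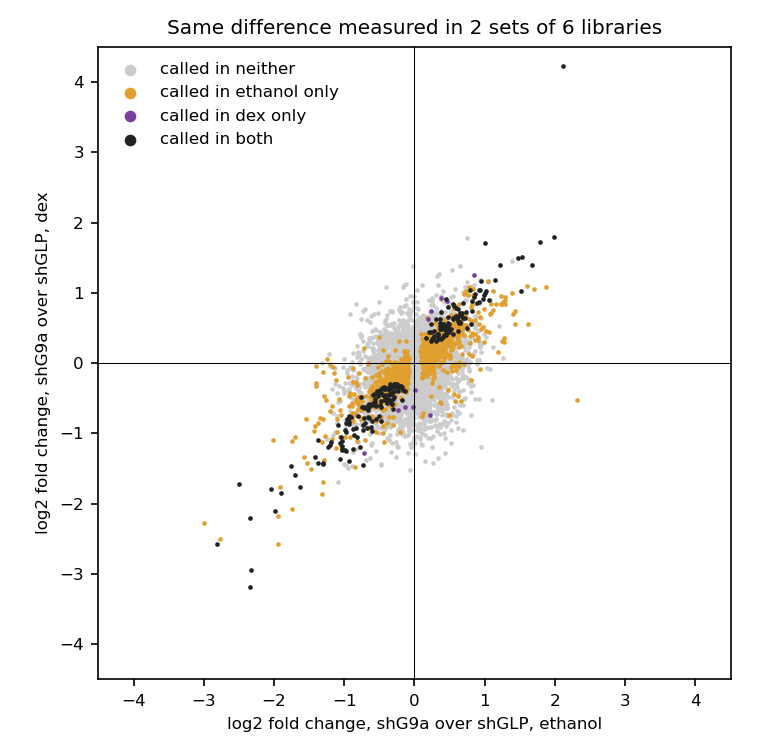
Log2 fold change of shG9a over shGLP in the 6 ethanol libraries (horizontal axis) and in the 6 dex libraries (vertical axis), for 8897 transcripts. Black points were called in both treatments, orange in ethanol only, purple in dex only and grey in neither; the 225 black points lie along the diagonal.

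Whether dex changed the difference between the depletions was tested as an interaction of shRNA and treatment. Of 9746 transcripts, 0 passed (0%), with a smallest adjusted p of 0.908 in edgeR, and 403 had an unadjusted p under 0.05. DESeq2 and limma-voom also called 0, and edgeR without a filter on low counts called 42. The smaller count in dex than in ethanol is therefore not shown to be a different response to the partners' loss.

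Glucocorticoid-induced genes, some of which need G9a and GLP as coactivators, differed in both directions. Of 33 tested, 4 (12.1%) were higher with shG9a and 6 (18.2%) lower, against 8.13% and 9.31% of all genes. The median was -0.03. Without the shG9a dex library of replicate 2 the counts were 4 and 8, where 2136 of all 9711 transcripts were called. UBASH3B, a phosphatase-like regulator of receptor signalling, was lower with shG9a in both treatments. In ethanol its mean was 200.3 ± 8.19 CPM with shG9a and 388 ± 38.2 with shGLP (SD, n = 3), and in dex it was 431 ± 33.6 and 752 ± 40.3. The groups were apart in each treatment, and the mean was higher in dex under both shRNAs (log2 fold change of shG9a over shGLP -0.88, adjusted p = 6.87e-08, edgeR). The shNS means were 248 CPM in ethanol and 632 CPM in dex. BTG2, an antiproliferative gene, reached 345 ± 58.3 CPM in dex with shG9a and 446 ± 34.8 with shGLP, against 568 ± 11.2 with shNS (-0.43). KLF13, a Krüppel-like transcription factor, reached 496 ± 42.0, 629 ± 36.8 and 724 ± 37.7 CPM in the same order (-0.32).

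BTG1, the relative of BTG2, went the other way. Its mean in dex was 922 ± 43.9 CPM with shG9a and 697 ± 46.2 with shGLP (SD, n = 3), and in ethanol 464 ± 27.3 and 349 ± 19.5 (log2 fold change 0.41, adjusted p = 1.63e-06, edgeR). SOCS2, an inhibitor of cytokine receptor signalling, had 33.9 ± 2.47 and 24.1 ± 3.07 CPM in dex (0.60). P2RY14, a receptor for UDP-sugars, was near 0 in ethanol and had 4.41 ± 0.286 and 1.92 ± 0.579 CPM in dex (1.24, adjusted p = 0.0061, edgeR). In dex the shNS mean of each of these 3 genes was above both depletions, at 1164, 43.0 and 5.41 CPM. GPR65, an acid-sensing receptor of lymphocytes, was the most different of the list (-1.87): it had 0.679 to 1.495 CPM with shG9a and 3.28 to 4.798 with shGLP, and its shNS mean was 1.06 CPM. Smaller differences were those of SOCS1 (-0.39), the phosphatase DUSP1 (-0.33) and ID3 (0.15), an inhibitor of DNA binding. GPR65 and ID3 had lower means in dex than in ethanol under each of the 3 shRNAs, so these members did not behave as induced genes here. DUSP1 showed no clear rise either. It had 279 to 375 CPM in ethanol and 269 to 376 in dex with shNS. The ranges were 229 to 356 and 242 to 365 CPM with shG9a, and 342 to 407 and 352 to 426 CPM with shGLP.

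**Figure D5:**
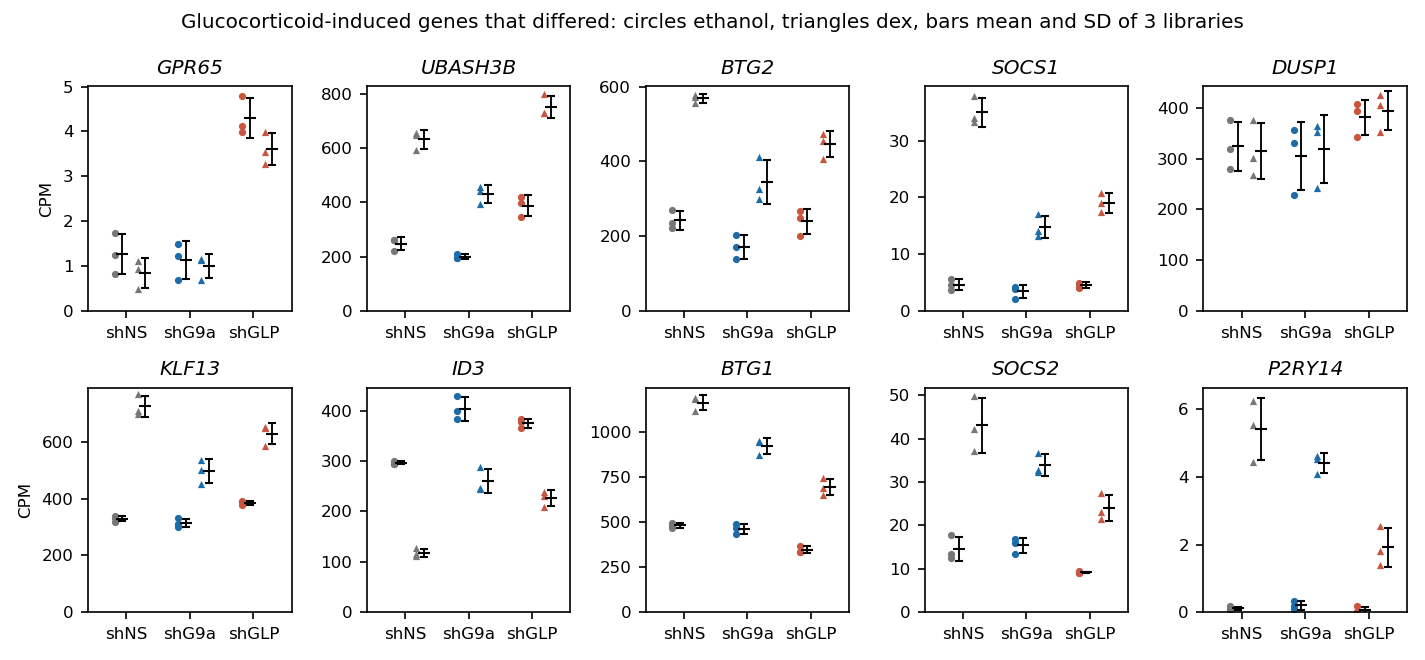
CPM of each library for the 10 genes of the glucocorticoid-induced list that differed between shG9a and shGLP, by shRNA, with circles for ethanol, triangles for dex and bars for the mean and SD of 3 libraries. The shG9a points of UBASH3B lie below the shGLP points in each treatment, whereas those of BTG1, SOCS2 and P2RY14 in dex lie above them.

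Among the glucocorticoid-induced genes, the markers TSC22D3, PER1 and FKBP5 gave no call between the depletions. TSC22D3 (GILZ) had a log2 fold change of -0.30 (SE 0.11, adjusted p = 0.0898, edgeR), PER1 -0.04 (SE 0.07) and FKBP5 0.10 (SE 0.09). Of 16 tested genes of the receptor and its chaperones, 1 differed. FKBP4, the cochaperone FKBP52 that helps carry the receptor to the nucleus, had 37.1 to 48.7 CPM with shG9a and 18.1 to 26.3 CPM with shGLP, with no overlap (0.85, SE 0.07, adjusted p = 9.99e-07, edgeR). Its shNS mean was 28.0 CPM. The receptor's own gene NR3C1 had 0.69 (SE 0.26, adjusted p = 0.0888, edgeR) on its counted accession, at a mean of 2.54 CPM with shG9a and 1.65 with shGLP.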

How the data were processed

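RNA-seq libraries were made from total RNA of Nalm6 cells and sequenced as paired ends on a NextSeq 500. The authors trimmed the reads, aligned them with HISAT2 to hg19 and counted them on RefSeq accessions. Tool versions, the counting mode and strand are not given in the sources used here. The deposited table holds raw counts for 64519 accessions, although it is labelled as CPM. Its columns with the authors' own fold changes and FDR were not used. Transcripts above 1 CPM in at least 2 fitted libraries were tested with edgeR 4.0.16 (R 4.3.3) by the quasi-likelihood test, with upper-quartile factors and the model shRNA + treatment + replicate number. Benjamini-Hochberg adjusted p of at most 0.05 was called. SE is the absolute log2 fold change over the square root of F. Printed CPM values were scaled by upper-quartile factors over all 24 libraries, and a gene is its most abundant accession. Named were the 12 largest differences in each direction with a mean of at least 5 CPM and 1 sign in 6 of 6 pairs. From each of 24 lists, up to 3 called members with the smallest adjusted p were named. Where none was called, the member with the smallest p was named. Some further members of the lists are given beside them. GENCODE gave GRCh37 positions. The members and lists were chosen with earlier results of these data known, and the metallothionein, small RNA and Toll-like receptor lists after values had been seen. TMM, DESeq2 1.42.0, limma-voom (limma 3.58.1), other filters and left-out libraries were alternatives. The fits were tested on simulated data. In the main fit, p-values measure the spread left among the 12 libraries after shRNA, treatment and replicate number. The ethanol and dex libraries of the same shRNA and replicate number counted there as separate libraries. Whether they came from the same infected cells is not given in the sources used here. If they did, the p-values may be too small.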

Additional observations from a re-analysis of the deposited data

How the results depend on the processing

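The main count of 1612 called transcripts was 1613 with TMM factors (53.1% higher with shG9a, against 46.7%), 1352 with DESeq2, 1590 with limma-voom and 1572 with accessions summed per gene. It moved with the replicate block and with left-out libraries: 974 without the replicate block, and between 683 and 2136 with a replicate number or 1 library left out, the highest without the shG9a dex library of replicate 2. In ethanol, 1590 became 732 with DESeq2, 387 without the replicate block, 630 with dispersion from all 24 libraries and 959 to 1344 with a replicate left out. In dex, 237 became 764 without the low-count filter, 148 without the replicate block, 913 with dispersion from all 24 libraries, 17 to 819 with a replicate left out (819 without replicate 2) and 1044 without the shG9a dex library of replicate 2, which was chosen after seeing the data. The interaction count of 0 became 42 without the low-count filter. The cause of these shifts was not tested. Libraries of the same replicate number correlated at 0.0807 to 0.37 in their deviations from group means, 14 of 18 over 0.1, and were best matched by their own number in 30 of 36 combinations of library and group, a hint from the data that the numbers pair them. Of 76 named transcripts none reversed under any alternative run. Most had been chosen for their calls in these same libraries, so few reversals could arise and their absence is no independent check. The call was lost by 19 without the replicate block, 5 to 21 with a replicate number left out, 5 without the filter and 4 with DESeq2. Genes with several accessions, which hold 6.5% of counts, are limited by depth.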

Other observations

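Some of the largest differences fell below the 5 CPM used for naming genes, and they were picked out after their values had been seen. MPEG1, the pore-forming protein perforin-2 of phagocytes and B cells, had 3 to 6 counts in each shG9a library and 14 to 38 in each shGLP library (log2 fold change -2.68, SE 0.27, lower with shG9a in 6 of 6 pairs). ARHGAP24, a Rac-directed GTPase-activating protein, had 1 to 11 and 16 to 45 counts (-2.63, SE 0.29), and MYBPC2, a myosin-binding protein of muscle, 2 to 8 and 14 to 32 (-2.62, SE 0.29). KLHL14, which is expressed in B cells, had 1 to 10 and 15 to 30 counts (-2.03, SE 0.34), and IL18RAP, the accessory chain of the interleukin-18 receptor, 0 to 7 and 7 to 17 (-2.20, SE 0.43). The long noncoding RNAs LINC00504 (-2.75, SE 0.32) and LINC01221 (-2.68, SE 0.33) were alike. The mean shNS level was 0.538 CPM for MPEG1 and 0.191 CPM for ARHGAP24, next to shG9a means of 0.392 and 0.452 CPM and shGLP means of 2.57 and 2.94 CPM. In the other direction LOC728485 had 8 to 29 counts with shG9a and 0 to 4 with shGLP (2.81, SE 0.41), and 1.00 CPM on average with shNS.

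By chromosome, the share of tested genes that were higher with shG9a ran from 5.53% on chromosome 22 to 12.7% on chromosome 18, with 12.3% on chromosome 19. The share that were lower ran from 6.45% on chromosome 21 to 13.6% on chromosomes 9 and 22.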
